A study of Homo sapiens with 96 samples.

Results

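Translational efficiency, the ribosome footprint level of an mRNA relative to its total RNA level, was compared between U2-OS cells depleted of Bmal1 and wild-type U2-OS cells. All genes that were well counted in both assays were taken, which meant a mean of at least 20 reads per library over the 48 footprint libraries and also over the 48 total RNA libraries. This left 10247 of the 19438 genes in the tables. U2-OS is a human osteosarcoma line widely used as a cell-autonomous clock model, and the line here carried a Per2-luciferase reporter. The knockdown cells received a mix of siRNAs against Bmal1 (120 pmol per plate, with a lipid transfection reagent, in medium without antibiotics) and were seeded at 560000 cells per plate. The wild-type cells received no siRNA, with no control siRNA named in the labels, and were seeded at 2250000 cells per plate. Both were synchronised with 0.1 µM dexamethasone, collected from 24.5 h onwards every 2 h at 12 times (CT0 to CT22), and treated with 100 µg/mL cycloheximide, which holds ribosomes on the mRNA. Each treatment had 2 replicates per time, which gave 24 knockdown and 24 wild-type lysates, each with 1 footprint and 1 total RNA library. Loss of Bmal1, siRNA transfection and seeding density changed together and cannot be told apart in this design.

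Footprints are the stretches of mRNA that a ribosome protects from nuclease, so that their number over the total RNA of the same gene is a measure of how many ribosomes each mRNA carries. Some mRNAs are known for control at this step. Those of ribosomal proteins and several translation factors begin with a 5′ terminal oligopyrimidine (TOP) tract, a cytosine followed by a run of pyrimidines, and are translated under the control of mTORC1 and the RNA-binding protein LARP1. Others carry short reading frames upstream of the coding region that hold back or release its translation under stress, and replication-dependent histone mRNAs end in a stem-loop in place of a poly(A) tail. BMAL1 (gene symbol ARNTL) is the partner of CLOCK in the transcription factor that drives the circadian clock, and it is also known as a cytoplasmic factor that associates with the translation machinery downstream of mTORC1 and S6K1.

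The libraries held 2599879 to 4315197 assigned reads in knockdown footprints and 2497246 to 5822458 in wild-type footprints. Total RNA libraries held 13589361 to 20066462 reads in knockdown cells, apart from 2 shallow ones of replicate 2 (CT14 and CT18, the lower with 2564263), and 14580475 to 17605188 in wild-type cells. The summed total RNA of 9 osteoblast markers was 1183 to 1784 CPM (reads scaled to the library total) in knockdown and 1080 to 1397 CPM in wild-type libraries, carried by SPARC and COL1A1, while SP7, BGLAP, IBSP and COL1A2 averaged at most 0.145 CPM in either treatment. The summed blood markers reached 17.7 CPM in knockdown and 3.37 CPM in wild-type libraries, nearly all CD68, with CD3E at 0 in every library. The 5 epithelial markers summed to at most 15.4 CPM in knockdown and 24.2 CPM in wild-type libraries. The 6 neuronal markers summed to 307 to 406 CPM in knockdown and 296 to 371 CPM in wild-type libraries, mostly TUBB3. Their part in the efficiency results was not tested.

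Knockdown shifted the efficiency of many mRNAs by small amounts. Of the 10247 genes, 4092 (39.9%) differed at an adjusted p under 0.05, with 2051 (20%) higher and 2041 (19.9%) lower in knockdown cells. On the deposited scaling of the libraries the same fit gave 4146 higher and 1003 lower, and the median over all genes was 0.09 in place of 0.00 (log2). Total RNA differed for 83.6% of the same genes (42.3% higher, 41.3% lower) and footprints for 76.8% (38.4% higher and 38.4% lower). The median absolute change among the genes called was 0.21 on the log2 scale, 2775 of them changed by under 1.2-fold, and 6 rose and 13 fell by 2-fold or more. The labels number the replicates without saying whether they were separate transfections, so the spread behind each p-value is that between these lysates and may be technical, and lysates of 1 wild-type series deviated together. With the mean of each 12-time series as the unit, 2 knockdown against 2 wild-type series, 1804 genes (17.6%) still passed, 847 (8.27%) higher and 957 (9.34%) lower, of which 1795 were also called from the lysates in the same direction.

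The 2 replicates share no library, and across genes their knockdown effects had a Pearson r of 0.65 and a Spearman rho of 0.60, with the same sign for 71.3% of genes. This is a description across genes, which are not independent replicates. The efficiency effect of 1 replicate was nearly unrelated to the total RNA effect of the other (Pearson r 0.07 and 0.09), whereas the total RNA effects of both replicates had an r of 0.94. In the tenth of genes whose RNA rose most in replicate 1, the median efficiency change in replicate 2 was 0.03, and in the tenth whose RNA fell most it was -0.04. SPTAN1, CES2 and GIGYF1 lay at the upper end in both replicates, and ZFHX3, MT1E and IBTK at the lower end.

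**Figure D1:**
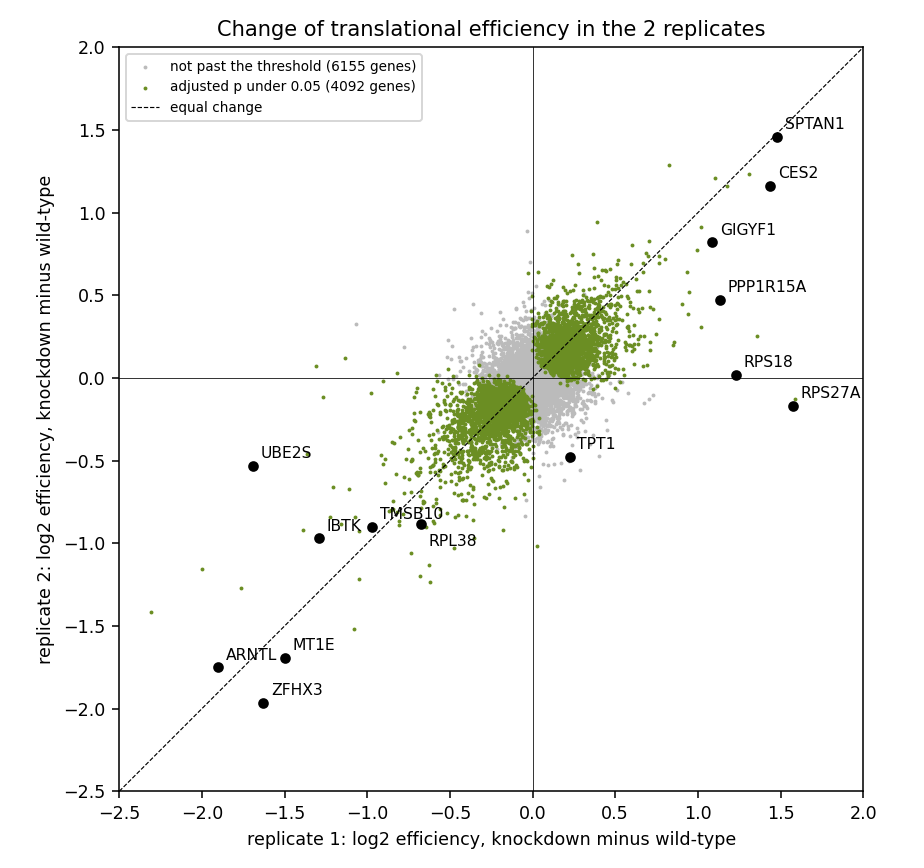
Change of log2 efficiency (knockdown minus wild-type) of 10247 genes in replicate 1 (x axis) and replicate 2 (y axis); green points are the 4092 genes called at an adjusted p under 0.05 and grey points the rest. Most genes lie within 0.5 of 0 in both replicates, SPTAN1 (1.48 and 1.46) and ZFHX3 (-1.63 and -1.96) lie far out near the diagonal, and RPS27A (1.58 and -0.17) and UBE2S (-1.69 and -0.53) lie away from it.

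For single genes, no variation of the effect over the day passed the threshold. The test of treatment by time in limma called 0 genes, with a lowest adjusted p of 0.268, and 297 genes had an unadjusted p under 0.05; edgeR was not run for this term. The comparisons below use the mean over the 12 times, although the median of the ribosomal protein and TOP lists differed between early and late times, as given with those lists. Genes named individually were the 12 largest rises and 12 largest falls that passed on lysates and on series means, kept 1 direction at all 12 times and in both replicates, and had at least 20 reads on average in every treatment and assay. In all, 433 rises (4.23%) and 488 falls (4.76%) met these conditions.

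SPTAN1 had the largest rise. It encodes alpha-II spectrin, a long rod-like protein of the membrane skeleton. Its log2 efficiency was 0.35, 0.59 and 0.85 (lowest, median, highest of 24 lysates) in knockdown cells and -1.22, -0.86 and -0.56 in wild-type cells. The 2 groups did not overlap. Footprints had a median of 164 CPM in knockdown and 45.5 CPM in wild-type cells, whereas total RNA had a median of 100 CPM in knockdown and 85.3 CPM in wild-type cells. The change was 1.47 ± 0.04 (log2, SE, 24 lysates each; adjusted p = 2e-28), it ranged from 1.19 to 1.69 over the 12 times, and total RNA rose by 0.24. Of the other tested spectrin-associated genes, SPTB (beta-spectrin, -0.37), TMOD3 (-0.36) and EPB41L1 (-0.42) fell, as did TMOD1 (-1.15), which caps the pointed ends of actin filaments. In all, 4 of the 17 tested genes of this list rose, SPTAN1 among them, and 6 fell, beside 20% and 19.9% of all genes. The median of -0.03 turned to 0.06 on the deposited scaling, where 8 rose and 5 fell.

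GIGYF1, which together with the cap-binding protein 4EHP (EIF4E2) represses translation, was also separated completely between the groups. Its log2 efficiency was -0.38, 0.11 and 0.56 in knockdown cells and -1.02, -0.83 and -0.40 in wild-type cells (lowest, median, highest). It rose by 0.95 ± 0.06 (SE, adjusted p = 3.26e-17) with a total RNA change of -0.17. Its paralog GIGYF2 rose by 0.15 on lysates and did not pass on series means (adjusted p = 0.0943), and EIF4E2 itself gave 0.01 (adjusted p = 0.875).

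The other 10 of the largest rises spanned 0.75 to 1.30. Several lay near the minimum of 20 reads in wild-type footprints. Their means per library were 20.9 for CES2, 21.3 for NLRP1, 23.1 for SHANK1 and 24.5 for NFKBIZ, while FBXW7 had 51.3. CES2, a carboxylesterase that cleaves ester drugs, rose by 1.30 ± 0.10 (SE), with -2.32, -1.70 and -1.40 in knockdown and -4.26, -2.98 and -2.20 in wild-type lysates. The lowest knockdown value thus lay just below the highest wild-type value. NLRP1, an inflammasome sensor, rose by 1.17, and NFKBIZ, a nuclear inhibitor of NF-kappa-B proteins, by 1.16. SHANK1, a scaffold of excitatory synapses, rose by 1.27, the potassium channel KCNQ3 by 0.88 and the GABA receptor subunit GABRA3 by 0.77. KCNQ3 had the largest RNA rise of this set, 1.60, so that its footprints rose by 2.48. FBXW7, the substrate receptor of a ubiquitin ligase, rose by 0.75 and ADAMTSL1, a secreted protein of the ADAMTS-like family, by 0.97. PPP1R15A (GADD34), which directs a phosphatase to the initiation factor eIF2-alpha, rose by 0.80, with 1.13 in replicate 1 and 0.47 in replicate 2, a difference that passed its own test (adjusted p = 0.0094). MSANTD3 rose by 0.76.

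ZFHX3, a large zinc finger and homeobox transcription factor, had the largest fall that met the conditions. Its log2 efficiency was -2.16, -0.91 and -0.42 in knockdown cells and 0.43, 0.83 and 1.16 in wild-type cells (lowest, median, highest). The 2 groups did not overlap. Footprints had a median of 15.1 CPM in knockdown and 69.4 CPM in wild-type cells. The change was -1.80 ± 0.07 (SE, adjusted p = 4.06e-21), against a total RNA change of -0.28. The knockdown lysate of replicate 2 at CT14, whose total RNA library was shallow, gave the lowest value, and without the 2 shallow libraries the change was -1.72.

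IBTK, an inhibitor of Bruton tyrosine kinase whose mRNA carries upstream reading frames, fell by 1.13 on the log2 scale. Its values were -3.10, -2.49 and -2.05 in knockdown cells and -1.66, -1.34 and -1.12 in wild-type cells, again without overlap. TMSB10, the actin-monomer binding protein thymosin beta-10, had a median of 548 CPM of footprints in knockdown and 1065 CPM in wild-type cells, at a total RNA median of 2491 CPM in knockdown and 2426 CPM in wild-type cells. Its efficiency therefore fell by 0.94 ± 0.06 (SE) with an RNA change of 0.03. RTN2, a reticulon of the endoplasmic reticulum, fell by 1.02, CREB3L1, a membrane-anchored transcription factor, by 0.94, and VSTM1 and C12orf75 by 0.93 and 0.96.

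In some genes, efficiency and RNA moved in opposite directions. C7orf10 (SUGCT, a mitochondrial CoA transferase) had an RNA rise of 2.51 and an efficiency fall of 1.52, so that its footprints rose by only 0.99. TMOD1 had an RNA rise of 1.35 and a footprint change of 0.19. The metallothionein MT1E fell by 1.60, with -5.44, -4.56 and -3.88 in knockdown and -3.51, -2.96 and -2.57 in wild-type lysates, while its RNA rose by 0.72. MT2A likewise fell by 0.62 with an RNA rise of 1.12, and MT1X gave -0.04 (adjusted p = 0.577). Metallothioneins, which bind zinc and copper, form a family of near-identical genes, and UQCRHL (-1.13) and PTCHD3P1 (-1.03) are a close copy of UQCRH and a pseudogene, so reads of these genes may have been split between copies and their values are uncertain.

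**Figure D2:**
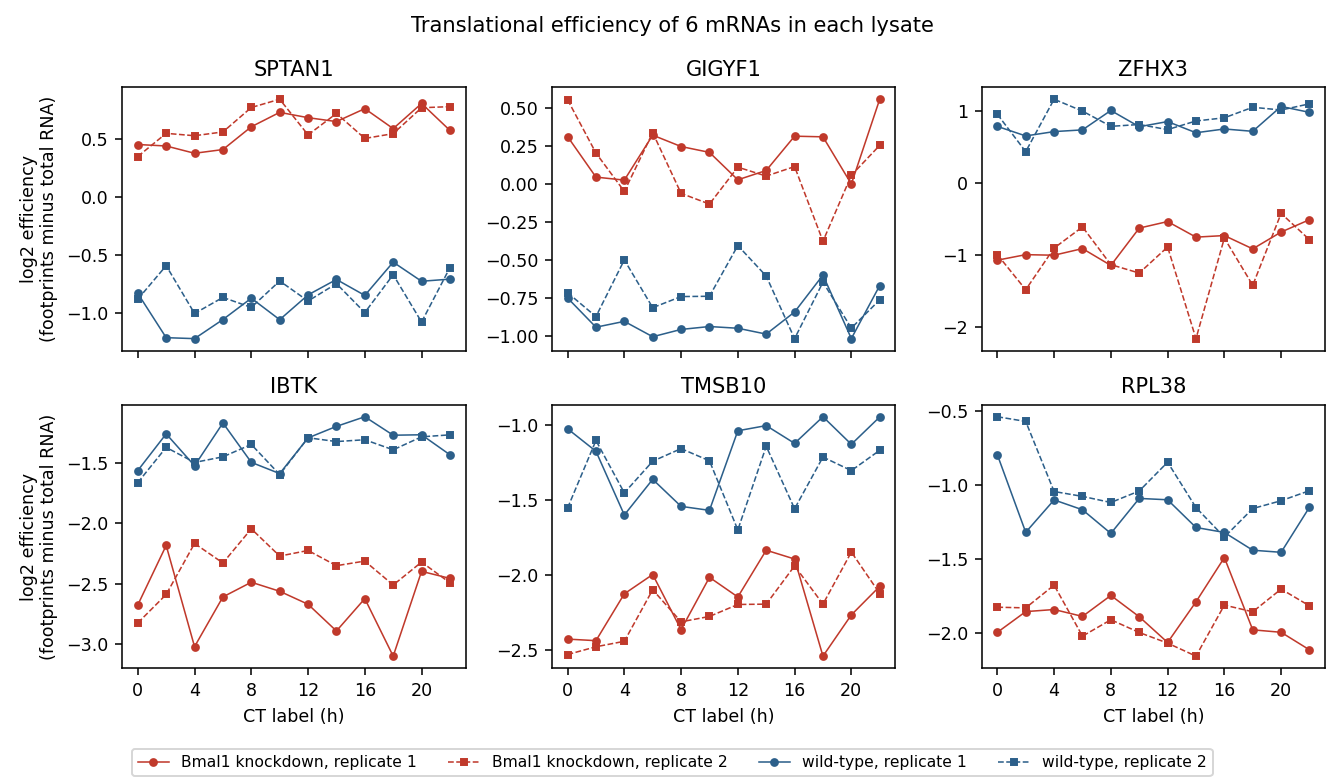
Log2 efficiency (footprints minus total RNA) of 6 mRNAs in each lysate against the CT label in hours, with knockdown in red and wild-type in blue and a line for each replicate. In all 6 panels the 24 knockdown values lie on 1 side of the 24 wild-type values, above for SPTAN1 and GIGYF1 and below for ZFHX3, IBTK, TMSB10 and RPL38.

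Separation of all 24 knockdown from 24 wild-type values was found for 15 genes (0.146%) that were higher and 22 genes (0.215%) that were lower. These include genes outside the naming rule, which were chosen after their values were seen. Beside SPTAN1, GIGYF1 and KCNQ3, the higher ones included NES (nestin, 0.73), PLEC (plectin, 0.72), MACF1 (0.52), AKAP12 (0.53), AHNAK2 (0.25), MDN1 (0.46), PDCD11 (0.43), ZNFX1 (0.54), NISCH (0.54), RBM12 (0.29) and CHD4 (0.24). Plectin and MACF1 are linkers of the cytoskeleton, and MDN1 is an ATPase of ribosome assembly. The lower ones included PABPC4, a poly(A)-binding protein (-0.77), GTF3A, the 5S rRNA transcription factor (-0.83), LTBP2 (-0.82), the cyclin CCNI (-0.61), LMNB1 (lamin B1, -0.44), ARPC3, a subunit of the Arp2/3 complex (-0.40), CAV1 (-0.34), TUBA1C (-0.33) and LAMP2 (-0.29).

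ARNTL total RNA fell by 2.61 and its footprints by 4.44 on the log2 scale. In footprints it had 54 reads over the 24 knockdown libraries, with 3 libraries at 0 and at most 6 in any, and 1846 reads over the 24 wild-type libraries. In total RNA it had 1774 reads in knockdown and 12744 in wild-type libraries. Its log2 efficiency was lower in every knockdown lysate (-4.30, -2.48 and -1.53) than in any wild-type lysate (-1.37, -0.80 and -0.09). The fitted change was -1.83 ± 0.16 (SE), but it rests on a median of 2 knockdown footprint reads per library and became -1.06 when the pseudocount was raised to 1 CPM.

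Among the other clock genes, some large RNA changes came with small efficiency changes. In CRY2, PER3 and DBP efficiency moved in the direction of RNA, which changed by 1.19, -0.85 and -1.09. In NPAS2 and CRY1 it moved against RNA, which changed by 0.59 and 0.19. NR1D2, a nuclear receptor that represses ARNTL, fell in RNA by 2.85 and had a log2 efficiency of -1.49, -1.04 and -0.60 in knockdown and -1.55, -0.95 and -0.46 in wild-type lysates, a change of -0.06 ± 0.06 (SE, adjusted p = 0.424). PER2 and BHLHE40 RNA rose by 0.93 and 1.17 with efficiency changes of 0.14 and -0.07, neither of which passed. CRY2, a repressor of CLOCK and BMAL1, was the 1 tested clock gene whose efficiency rose on the TMM scaling, by 0.41 ± 0.06 (SE), alongside an RNA rise of 1.19; its values were -0.58, -0.30 and -0.09 in knockdown and -1.11, -0.70 and -0.26 in wild-type lysates, with some overlap. PER3 (-0.45), DBP (-0.39), PER1 (-0.24) and NPAS2, a paralog of CLOCK (-0.36), fell and passed on series means, although PER1 missed the threshold without replicate 1 (adjusted p = 0.0972) and NPAS2 without replicate 2 (-0.25, adjusted p = 0.157). Of the 12 repressor and output genes tested, 1 rose and 4 fell, beside 20% and 19.9% of all genes. On the deposited scaling 4 rose and 3 fell, beside 4146 and 1003 of all 10247 genes. CRY1 fell by 0.18 and missed the threshold on series means (adjusted p = 0.0576). CLOCK, ARNTL2, BHLHE41, TEF, NFIL3 and WEE1 gave changes between -0.19 and 0.16 that did not pass, although TEF (0.24), WEE1 (0.14) and PER2 (0.22) passed on the deposited scaling. Clock genes below the read minimum included NR1D1, RORA, RORB, HLF and C1orf51.

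**Figure D3:**
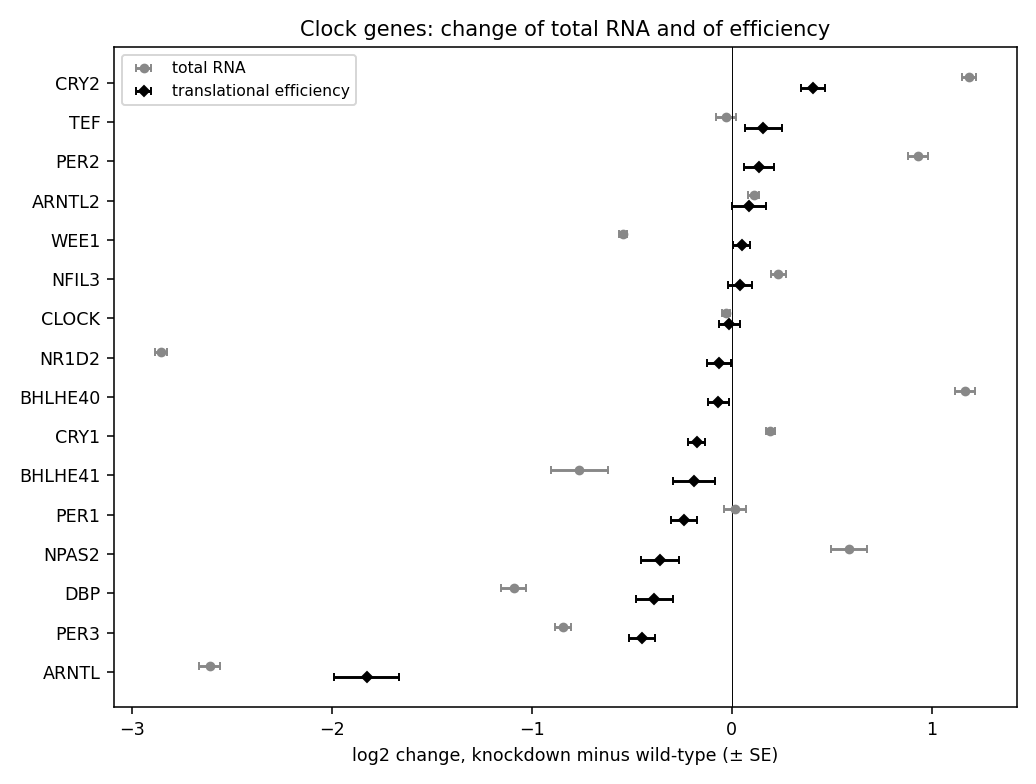
Change of total RNA (grey) and of efficiency (black), knockdown minus wild-type on the log2 scale ± SE, for 16 clock genes ordered by the efficiency change. NR1D2 lies at -2.85 for RNA and at -0.06 for efficiency, and CRY2 lies to the right of 0 for both.

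Many ribosomal proteins are encoded by mRNAs that start with a TOP tract, and the first 20 bases of such transcripts are shown because the members below share this start and differed in how alike the 2 replicates were. They are the RefSeq starts on GRCh38.p14, matched by symbol, in the first exon, from the start with the longest tract where several are listed, with the tract in capitals.
RPL38, chr17:74203678-74203697, plus strand: CTTTTTCgtccttttccccg
RPS12, chr6:132814569-132814588, plus strand: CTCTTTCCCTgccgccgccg
RPS24, chr10:78033863-78033882, plus strand: CTCTTTTCCTCCTTggctgt
EIF3F, chr11:7987337-7987356, plus strand: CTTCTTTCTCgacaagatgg
RPL13A, chr19:49487608-49487627, plus strand: CTTTTCCaagcggctgccga
TPT1, chr13:45341164-45341183, minus strand: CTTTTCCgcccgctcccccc
EEF2, chr19:3985444-3985463, minus strand: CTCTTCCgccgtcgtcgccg
BTF3, chr5:73498442-73498461, plus strand: CCCTTTagctgccatcttgc
For comparison, the genes with large changes above that have no such tract begin as follows.
SPTAN1, chr9:128552587-128552606, plus strand: gccactacccgctgcggagt
TMSB10, chr2:84905656-84905675, plus strand: gtttcttgctgcagcaacgc
IBTK, chr6:82247725-82247744, minus strand: atccccgttcccgattcctg
The tract was searched on the transcribed strand only, as C at the first base followed by at least 4 pyrimidines. It was found at 4.07% of 35114 annotated starts and in 7.77% of the 8483 tested genes with a start.

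Efficiency of ribosomal protein mRNAs fell more often than it rose, and for many of them the size depended on the replicate. Of 40 tested large subunit proteins, 18 fell and 1 rose, with a median change of -0.12, and of 26 small subunit proteins 14 fell and 3 rose, with a median of -0.18. On the deposited scaling 13 large subunit genes fell and 4 rose (median -0.03), and 11 small subunit genes fell and 4 rose (median -0.10). Over all genes 19.9% fell, 20% rose and the median was 0.00. The median was 0.03 in replicate 1 and -0.29 in replicate 2 for the large subunit, and -0.04 in replicate 1 and -0.31 in replicate 2 for the small subunit. On series means 11 large and 8 small subunit genes passed. The difference between replicates passed its own test for 27 large and 12 small subunit genes, against 370 of all 10247 genes (3.61%, with 2.67% higher in replicate 1 and 0.937% lower).

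RPL38 was the ribosomal protein with the largest fall. Its log2 efficiency was -2.16, -1.87 and -1.49 in knockdown cells and -1.46, -1.11 and -0.54 in wild-type cells, without overlap, and the change was -0.78 ± 0.05 (SE), with -0.67 in replicate 1 and -0.89 in replicate 2. RPS24 also showed no overlap, with -2.46, -2.14 and -1.86 in knockdown and -1.82, -1.54 and -1.08 in wild-type lysates, and fell by 0.68. RPS12 (-0.70), RPS25 (-0.67) and RPL34 (-0.51) fell in both replicates. RPS15A (-0.64) and RPLP0 (-0.45) fell in both, by more in replicate 2 (adjusted p of the difference 0.013 and 0.024). Other members, chosen here after their values were seen, had opposite signs: RPL13A changed by 0.37 in replicate 1 and -0.35 in replicate 2, RPL12 by 0.45 and -0.32, and RPS27A by 1.58 and -0.17. RPS18, also chosen after its values were seen, changed by 1.23 in replicate 1 and 0.02 in replicate 2. RPS29 rose by 0.45 in a similar way in both (0.46 and 0.44). Ribosomal protein genes have many processed pseudogenes, and 7 large and 6 small subunit genes did not reach the read minimum. RPL7, for example, had a mean of 939 total RNA and 1.38 footprint reads per library, and how reads of copies were assigned was not tested.

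The other TOP mRNAs, mostly of translation factors, were also divided between replicates. Of 20 tested, 4 fell and 2 rose, near the 19.9% and 20% of all genes. Their median of -0.04 turned to 0.04 on the deposited scaling, where 3 fell and 4 rose. The difference between replicates passed for 15, against 3.61% of all genes. EIF3F (-0.40), NACA, a chaperone of nascent chains (-0.27), and the filament protein VIM (-0.21) fell in both replicates. TPT1 changed by 0.22 in replicate 1 and -0.47 in replicate 2 (adjusted p of the difference 9.77e-08), the nascent-chain factor BTF3 by 0.24 and -0.28, and the elongation factor EEF2 by 0.39 and -0.05. EIF3H fell by 0.09, a call that was lost on series means (adjusted p = 0.393) and whose sign turned without replicate 2 (0.02) and on the deposited scaling (0.0013).

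The 4 series showed a course over time that both replicates shared, and where the replicates parted. The median log2 efficiency over 66 ribosomal protein genes was -1.98, -1.83 and -1.57 (lowest, median, highest of 12 times) in knockdown replicate 1 and -1.95, -1.81 and -1.58 in knockdown replicate 2. It was -2.12, -1.75 and -1.44 in wild-type replicate 1 and -1.77, -1.45 and -1.07 in wild-type replicate 2. The knockdown series thus covered the same range, while both wild-type series were lower at later times. In replicate 2 the median was -1.87 in knockdown and -1.07 in wild-type cells at CT0, and -1.74 in knockdown and -1.77 in wild-type cells at CT22. In replicate 1 it was -1.81 in knockdown and -1.44 in wild-type cells at CT0, and -1.98 in knockdown and -2.12 in wild-type cells at CT22. Wild-type replicate 2 stood above both knockdown series from CT0 to CT14 and was near them from CT16 to CT22. Wild-type replicate 1 stood above both at CT0, CT4, CT6, CT10 and CT12, between them at CT2 and CT8, and below both from CT14 to CT22. Knockdown minus wild-type was -0.37 at CT0 and 0.14 at CT22 in replicate 1, and -0.80 and 0.03 in replicate 2. The small change over all times in replicate 1 thus averaged opposite signs. For the other TOP mRNAs the medians were -0.96 and -1.03 in knockdown replicates 1 and 2, and -0.99 and -0.70 in wild-type replicates 1 and 2. The share of genes that differed between replicates was also counted by transcript start. Of 40 tested ribosomal protein genes with such a start 65% differed between replicates, and of 11 genes of the other TOP list with it 81.8%. Of 12 ribosomal protein genes with an annotated start but no tract 41.7% differed, compared with 4.77% of the 608 genes with a TOP start outside these lists and 3.65% of all genes with a start. Those 608 genes had a median change of 0.00, with 113 higher (18.6%) and 131 lower (21.5%). This was near the 20.2% higher and 19.9% lower of all genes with a start.

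For single members the lowest and highest of the 12 times are given, a choice that makes some swing certain. RPS12 changed by -1.27 at CT0 and by -0.03 at CT18, but by -0.67 at CT22. RPLP0 changed by -0.76 at CT10 and -0.03 at CT18, and EIF3H by -0.41 at CT0 and 0.16 at CT20. None of these passed the test of treatment by time after adjustment. At an unadjusted p under 0.05, the term held for 8 of 40 large subunit genes, 6 of 26 small subunit genes and 6 of 20 other TOP mRNAs, beside 2.9% of all genes.

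**Figure D4:**
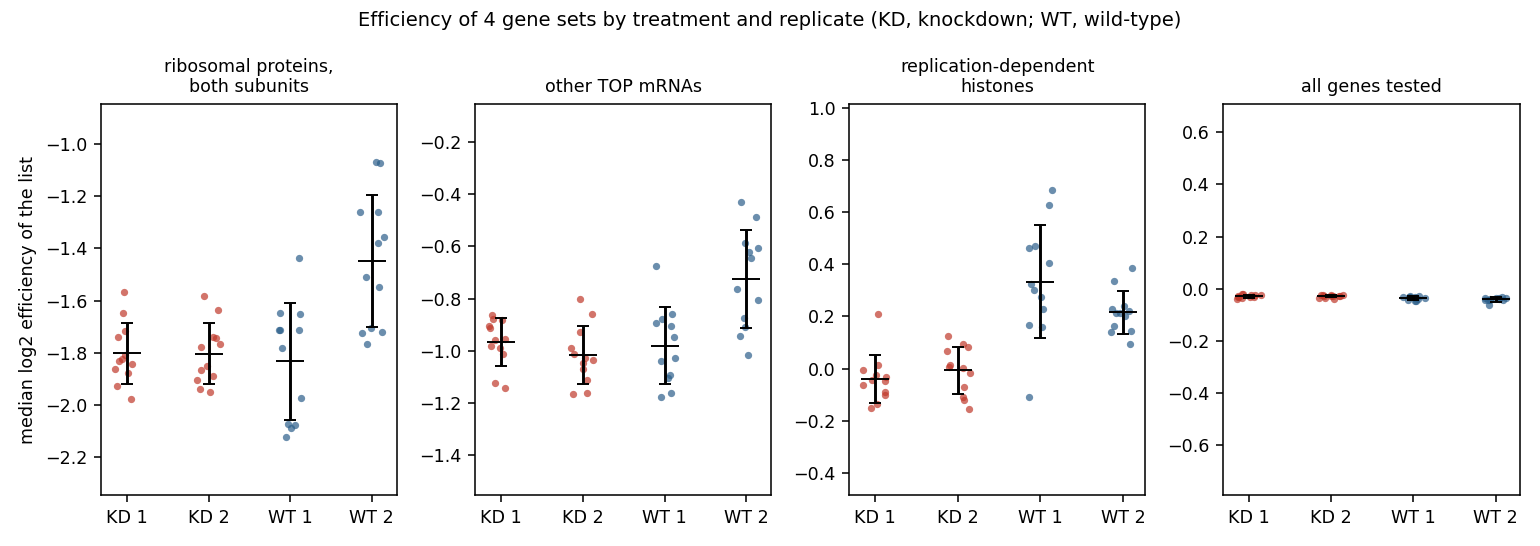
Median log2 efficiency over the members of 4 gene sets in each of 12 lysates of knockdown replicates 1 and 2 (red) and wild-type replicates 1 and 2 (blue), with mean ± SD of the 12 times in black; every panel spans the same height. For ribosomal proteins both knockdown series and wild-type replicate 1 have means near -1.8 while wild-type replicate 2 has a mean of -1.45, and for histones both knockdown means (-0.040 and -0.0076) lie below both wild-type means (0.333 and 0.215).

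Of 31 tested genes of the mTOR pathway, 3 rose and 7 fell, with a median of 0.03 (-0.02 within each replicate), whereas 14 rose and 3 fell on the deposited scaling. For this and the next 2 lists, the shares over all genes were 20% higher and 19.9% lower. MTOR, the kinase, rose by 0.25, and the stress-induced inhibitors of mTORC1 SESN1 and SESN2 rose by 0.35 and 0.42 beside RNA rises of 1.11 and 1.31. MLST8, a subunit of both mTOR complexes, fell by 0.49, and the translation repressor EIF4EBP1 by 0.23. LARP1 gave 0.03 (adjusted p = 0.581) and RPS6KB1, which encodes S6K1, gave 0.08 (adjusted p = 0.306). Among 30 initiation factors 6 rose and 9 fell, with a median of 0.01, whereas 15 rose and 6 fell on the deposited scaling. EIF5B, which joins the ribosomal subunits, rose by 0.56, with 0.76 in replicate 1 and 0.36 in replicate 2, and EIF3A (0.25), EIF2S1 (eIF2-alpha, 0.21) and EIF2B5 (0.21; 0.12 and no longer called without replicate 1) rose while EIF2S3 (-0.25) and EIF5 (-0.21) fell. Of 19 genes listed with the elongation and release factors, 5 rose and 1 fell, with a median of 0.01. On the deposited scaling 8 rose and 1 fell, with a median of 0.10. The rises included GIGYF1, GIGYF2, DRG1 and GTPBP2, so they are not a result about elongation and release factors proper. The one that fell was EEF2K (-0.58), the kinase that inhibits elongation factor 2, and GTPBP2, which rescues stalled ribosomes, rose by 0.36.

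Among mRNAs with regulatory upstream reading frames, 4 rose and 6 fell of 12 tested, with a median of -0.14 (5 and 4 on the deposited scaling, with a median of -0.05). Those that fell included the stress transcription factors ATF4 (-0.58 ± 0.08, SE), ATF5 (-0.63 ± 0.15) and CEBPB (-0.62 ± 0.09). ATF4 had log2 efficiencies of -5.79, -5.41 and -4.78 in knockdown and -5.45, -4.69 and -4.45 in wild-type lysates, with overlap, and its RNA fell by 0.22. CEBPB was lower at all 12 times but missed the threshold on series means (adjusted p = 0.0817). Those that rose were PPP1R15A, MDM2 (0.33), PPP1R15B (0.19) and EPRS (0.14), the last of which missed the threshold on series means (adjusted p = 0.0826). DDIT3 and SLC35A4 were below the read minimum. Of 30 tested ATF4 targets, 22 had lower RNA in knockdown cells, beside 41.3% of all genes. In efficiency 5 of the 30 rose and 5 fell with a median of 0.02 (15 and 3 on the deposited scaling), beside 20% and 19.9% of all genes on the TMM scaling. Of 20 aminoacyl-tRNA synthetases, 8 rose and 4 fell in efficiency, led by LARS (0.25) and CARS (0.23), against 12 and 0 on the deposited scaling, where the median was 0.12 in place of 0.03.

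Polyamine synthesis is controlled by antizyme, whose mRNA OAZ1 needs a ribosomal frameshift. OAZ1 fell by 0.50 ± 0.03 (SE, adjusted p = 8.43e-17), with -1.53, -1.28 and -0.94 in knockdown and -1.04, -0.77 and -0.63 in wild-type lysates and an RNA change of -0.06. AMD1 and AZIN1, whose upstream elements respond to polyamines, changed by -0.19 and -0.16 and missed the threshold on series means (adjusted p = 0.0749 and 0.0694). Together 3 of the 9 tested genes of this list fell and 0 rose, whereas on the deposited scaling 1 fell and 3 rose. Of 18 selenoproteins, which need a recoded stop codon, 6 fell and 4 rose, beside 19.9% and 20% of all genes. Their median of -0.05 turned to 0.04 on the deposited scaling. SEPW1 (-0.40), SELM (-0.32), GPX4 (-0.22) and GPX1 (-0.20, and -0.09 and not called without replicate 1) fell, and SELO (0.31) and VIMP (0.28) rose. Of 8 tested mRNAs with an iron-responsive element, 3 rose and 1 fell, among them the iron exporter SLC40A1 (0.32, and 0.20 and not called without replicate 2).

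The replication-dependent histone mRNAs that reached the read minimum fell in efficiency. Of 16 tested, 15 fell and 0 rose (11 and 0 on the deposited scaling), beside 19.9% and 20% of all genes. The 1 not called was HIST1H1A, at -0.08 (adjusted p = 0.0946). The list median was -0.32, with -0.36 in replicate 1 and -0.24 in replicate 2. On series means 11 passed, beside 17.6% of all genes. HIST2H2BE had the largest fall, 0.69, with -2.61, -2.16 and -1.84 in knockdown and -1.88, -1.49 and -0.88 in wild-type lysates, which overlapped only at their edges. HIST1H2BN fell by 0.52, HIST1H3D by 0.45 and HIST1H2BK by 0.44. Their RNA fell too, for all 16, beside 41.3% of all genes, with a median of -1.13. Histone genes are near-identical copies, so single members are uncertain. The tables held 31 of these genes, and some below the read minimum had fewer total RNA than footprint reads. Means per library were 0.02 and 6.40 for HIST1H4L and 0.29 and 7.31 for HIST1H2AL, but 6.48 and 3.35 for HIST1H3F. How well total RNA reads measure histone mRNAs was not tested. SLBP, the protein that binds the histone stem-loop, fell by 0.28 in efficiency and by 0.76 in RNA.

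Other proliferation genes also had lower RNA, with mixed efficiency changes. Among all genes tested, RNA was lower for 41.3% and higher for 42.3%, and efficiency was lower for 19.9% and higher for 20%. RNA was lower for 30 of 31 S phase genes, of which 10 fell and 2 rose in efficiency (median -0.04, but 0.04 on the deposited scaling). POLE2 (-0.30) fell and POLE (0.27) rose. RNA was lower for all 30 tested G2 and M phase genes, of which 14 fell and 4 rose in efficiency with a median of -0.11 (8 and 6 on the deposited scaling). CKS2 (-0.36), CDC25B (-0.32) and NUSAP1 (-0.25) fell. UBE2S, which extends ubiquitin chains for the anaphase-promoting complex, gave -1.69 in replicate 1 and -0.53 in replicate 2 (adjusted p of the difference 1.35e-09) and did not pass on series means (adjusted p = 0.285). Of 21 p53 targets, RNA was higher for 19, and 9 rose and 3 fell in efficiency, with a median of 0.07. SESN1 (0.35), the cyclin CCNG1 (0.34) and the p53 ubiquitin ligase MDM2 (0.33) rose in both replicates, and FAS fell by 0.22.

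Mitochondrial subunits fell more often than they rose on the TMM scaling, which held on the deposited scaling only for complexes II to V (14 lower and 8 higher) and not for complex I (4 and 8) or mitochondrial ribosomal proteins (16 and 20). Of 40 subunits of respiratory complexes II to V, 22 fell and 2 rose, with a median of -0.12 (-0.03 on the deposited scaling), and 12 passed on series means. COX7B (-0.44), ATP5J (-0.31) and COX6B1 (-0.30) fell, while COX6A1 (-0.35) and UQCR10 (-0.31) fell on lysates but missed the threshold on series means (adjusted p = 0.293 and 0.0627). Of 35 complex I subunits 12 fell and 4 rose, and of 75 mitochondrial ribosomal proteins 29 fell and 6 rose; their medians of -0.07 and -0.06 turned to 0.02 and 0.03 on the deposited scaling. NDUFB3 (-0.28), MRPL42 (-0.32) and MRPS17 (-0.32) fell in both replicates, while MRPL34 fell by 0.33 and was -0.16 and no longer called without replicate 1 (adjusted p = 0.322). Of 30 proteasome subunits 8 fell and 5 rose, with PSMA3 lowest at -0.27, and the list median of -0.02 turned to 0.06 on the deposited scaling (1 lower and 14 higher). Heat shock proteins gave 3 falls and 2 rises of 14, with a median of -0.01 (0.08 on the deposited scaling), among them the co-chaperone BAG3 (-0.37, and -0.20 in replicate 1). The TMM counts of all these lists stand beside 19.9% lower and 20% higher over all genes.

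Matrix and endoplasmic reticulum mRNAs rose more often than they fell. Of 25 collagens and matrix genes 12 rose and 5 fell, with a median of 0.07 and 7 passing on series means. The basement membrane collagens COL4A1 and COL4A2 rose by 0.32 and 0.21, although COL4A1 RNA fell by 0.70 and COL4A2 RNA rose by 0.78. COL5A2 rose by 0.23, COL6A3 rose by 0.20 but was not called with unpaired libraries (adjusted p = 0.188) or by edgeR (adjusted p = 0.198), and the collagen chaperone SERPINH1 (-0.25) and COL6A1 (-0.22) fell. Of 18 endoplasmic reticulum chaperones 8 rose and 1 fell, with a median of 0.07, but only DNAJB11 (0.23) passed on series means. Of 21 cholesterol synthesis genes 4 rose (19%, near the 20% of all genes) and 1 fell, led by HMGCS1 (0.24), against 14 and 1 on the deposited scaling. Of 16 interferon-stimulated genes 5 rose and 1 fell. The RNA sensor DDX58 rose by 0.36 beside an RNA rise of 1.05, and TRIM22 rose by 0.25. Of 12 genes of the siRNA machinery 1 rose and 3 fell, beside 20% and 19.9% of all genes. Their median of -0.03 turned to 0.06 on the deposited scaling. AGO2, the slicer of the RNA-induced silencing complex, fell by 0.22, and XPO5, which exports precursors of microRNAs, rose by 0.22. Of 5 tested neuronal markers 1 rose and 1 fell in efficiency, near the 20% and 19.9% of all genes. Their median was -0.07 (0.02 on the deposited scaling), with a median RNA change of -0.67. The synaptic vesicle protein SYP rose by 0.55 with an RNA rise of 3.73, and the neuronal splicing factor RBFOX3 fell by 0.33, which was -0.11 and not called without replicate 2.

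**Figure D5:**
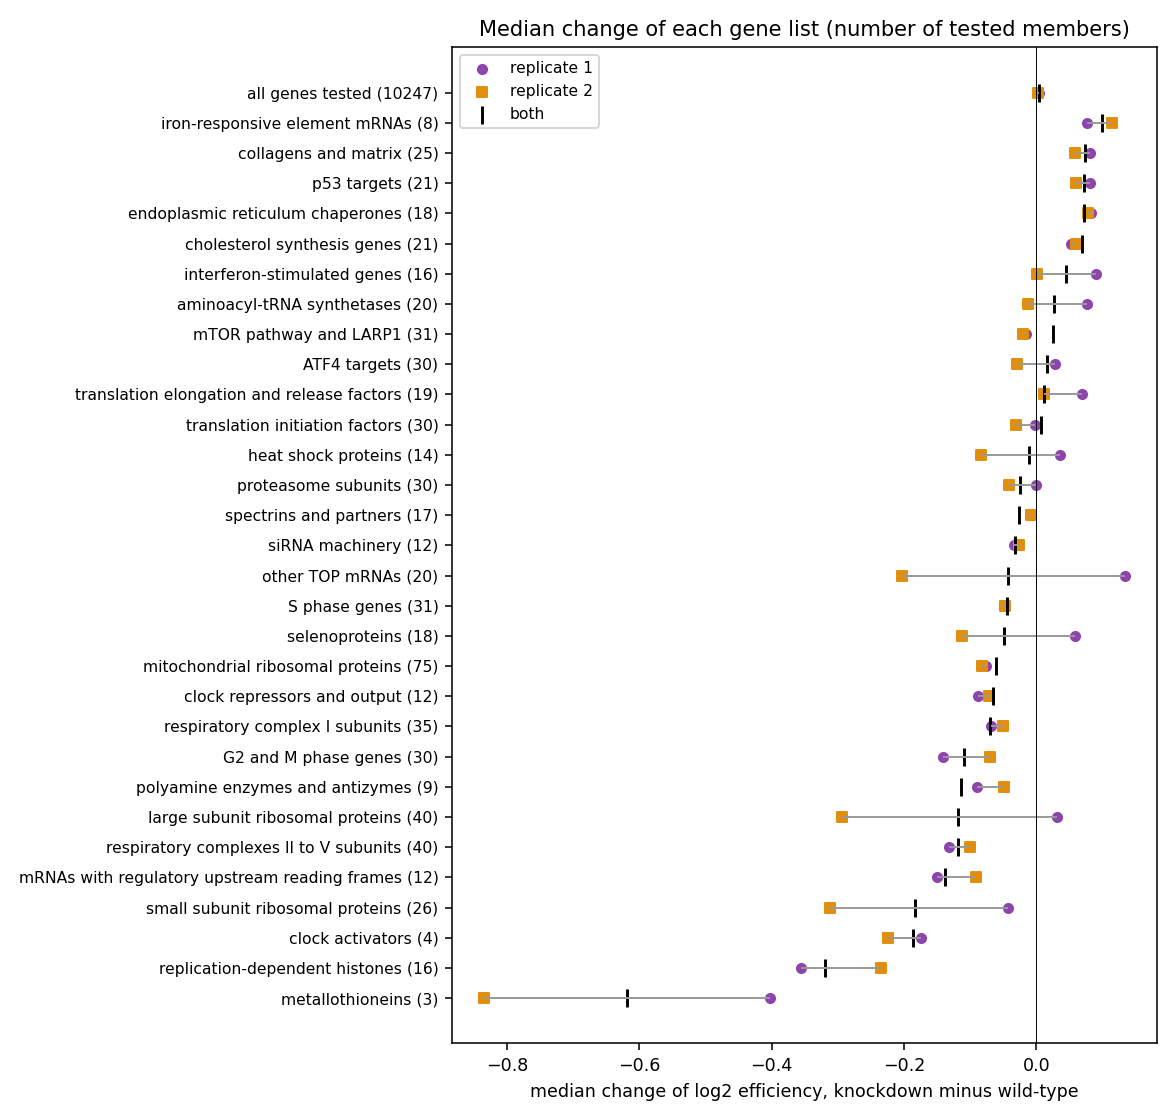
Median change of log2 efficiency (knockdown minus wild-type) of each gene list in replicate 1 (circles), replicate 2 (squares) and both (bars), with the number of tested members in brackets and all genes in the top row. Histones, metallothioneins and respiratory subunits lie below 0 in both replicates, while ribosomal proteins of the large subunit and the other TOP mRNAs lie above 0 in replicate 1 and below 0 in replicate 2.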

How the data were processed

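The deposited values are normalised signal per gene, per the file headers and labels. The submitters' processing notes name GRCh37 (hg19) as the build and, as tools, STAR (2.3.0e), HTSeq (0.5.4p1) and DESeq2 with no version. Every library's deposited signal was made of whole multiples of 1 read (100% of values within 0.001 reads), so reads per gene were recovered for 19438 genes in 96 libraries. TMM factors (edgeR 4.0.16) were computed for footprints and total RNA separately, and log2(CPM + 0.25) of total RNA was subtracted from that of footprints of the same treatment, time and replicate. In genes with few reads the added 0.25 CPM shrinks the footprint change and the total RNA change separately. Their efficiency change may therefore be understated or overstated.

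The 48 efficiency values per gene were fitted with limma 3.58.1 in R 4.3.3 (limma-trend, robust, 1 mean per treatment and time), with Benjamini-Hochberg adjustment over 10247 genes. The values are normalised, so the count test on recovered reads (edgeR quasi-likelihood) is an alternative, which called 3558 genes. Gene lists and members were chosen with earlier results of these data known. Lists were described by counts and medians, without a test. Named members of a list were taken from up to 4 past the threshold with the largest changes, in the direction of the list median first; members named beyond these, mostly in the other direction or known regulators, were chosen after their values were seen. The siRNA, seeding density and transfection differed between treatments. Protein length was not analysed here. RefSeq starts (GRCh38.p14) were matched by symbol, since the files use another build; 18668 of 19438 symbols matched RefSeq genes. Whether strand was used in counting is not given in the sources used here, so overlapping genes on opposite strands may share reads.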

Additional observations from a re-analysis of the deposited data

How the results depend on the processing

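The number of genes called for efficiency (4092) moved by more than 1.5-fold with series means as the unit (1804) and without replicate 1 (2610). Leaving out either replicate gave 2610 to 3489 calls, of which 47.4% to 52.0% were higher in knockdown, and leaving out the 2 shallow lysates gave 4000. With replicate number as a block 4186 genes were called. Same-numbered knockdown and wild-type lysates deviated together at only 4 of 12 times (correlation over 0.1), so the main fit did not pair the samples by number. Effects given per replicate do set same-numbered series against each other. An estimated correlation within series (0.0405) gave 3159 calls, unpaired libraries 3408, edgeR 3558 and a mean of 100 reads 3053. The deposited scaling raised the share of calls that were higher from 50.1% to 80.5%, in 5149 calls. On it EIF3H (0.0013) and HSPA8 (0.0149) turned sign. With a replicate left out EIF3H ranged from -0.193 to 0.0193 and HSPA8 from -0.163 to 0.0165, both above 0 without replicate 2. Treatment by time called 0 genes under each alternative run, and the replicate difference 319 to 377 genes. For the 137 named genes that were called, the call was kept in 3630 and lost in 174 of 3804 combinations of gene and alternative, 35 of the losses with series means; named genes that were not called gained a call in 4. Depth limits the clock genes and others with few footprint reads. The causes were not tested.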
